A study of Mus musculus with 6 samples.

Results

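Semaphorins, plexins and neuropilins are the ligands, receptors and co-receptors of one guidance system, and 31 genes of these families were examined among 22180 genes measured in mouse lung. The members were named as whole families and found by symbol: 20 semaphorin genes, 9 plexin genes and 2 neuropilin genes, all of which were on the array. Each gene is represented by the probe set with its symbol alone and with the highest mean. Semaphorins are secreted or membrane-bound proteins that bind plexins on neighbouring cells, and plexins then act on small GTPases and the cytoskeleton, so that cells turn, detach or stop. Most secreted (class 3) semaphorins reach their plexin through a neuropilin, whereas Sema3E binds Plexin-D1 directly and is known for directing growing blood vessels. In mouse lung explants Sema3A is known to restrain branching of the airway epithelium.

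The mutant group was 3 replicates of embryonic lung with the genotype Fzd2Flox/Flox; Shh cre/+, and the control group was 3 replicates with the genotype Shh cre/+, all at E12.5. Every replicate of both groups thus carried 1 Cre allele at Shh, a gene expressed in the lung epithelium, and the control labels name no floxed Fzd2 allele. Whole lung buds were used, 1 array of 100 ng total RNA each, and the labels do not state if each replicate was a single lung or pooled lungs. The question asked by the study was which genes depend on the Wnt receptor Fzd2 in the lung epithelium. Values are log2 expression as deposited, differences are mutant minus control in log2 units with limma's standard error (SE), and the number of arrays, 3 and 3, limits their precision. Array medians lay between 7.29 and 7.32.

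Fzd2 itself stood at 9.67, 9.07 and 9.54 in the mutant arrays and at 9.57, 9.82 and 9.75 in the controls, a difference of -0.29 (SE 0.15) with overlapping groups. The position of the Fzd2 probe set relative to the floxed part is not known here, and the deletion was not checked by it. Some arrays stood apart in genes of other tissues. The summed linear signal of 4 adipose markers was 12536 in mutant replicate 2 and 835 and 922 in the other mutants, against 703 to 1192 in controls. Mutant replicate 1 had 4457 for 5 heart muscle markers, with 1590 and 1726 in the other mutants and 1572 to 1774 in controls. Control replicate 1 had 8662 for 6 small intestine markers, where the mutants had 665 to 837 and the other controls 623 and 701. The main results are therefore also given without single arrays, and the Sema3e difference without control replicate 1 and mutant replicate 2 together. No fit left out all 3 of these arrays. As to the labelled tissue, the lowest log2 value of any of 27 measured pan-epithelial markers on any array was 5.65, and of any of 15 mesenchyme markers 7.35. The same lowest value was 5.91 for adipose and 6.79 for heart muscle markers. It thus cannot tell the labelled tissue from other tissues.

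Sema3e was the only member called over all genes in the main fit. Its log2 value was 8.26, 8.31 and 8.16 in mutant lungs and 8.86, 8.83 and 8.95 in control lungs. All mutant arrays lay below all control arrays, with a gap that exceeded the range within either group. Sema3e fell to 64.3% of the control level, a difference of -0.64 (SE 0.06, 95% confidence interval -0.77 to -0.50, limma adjusted p = 0.0238). It ranked 7 of 22180 genes by p. Earlier results of these data had shown Sema3e among the called genes, so its call is no independent support. Over all genes 0.0631% were called at an adjusted p under 0.05 (14 genes) and 0.0451% were called lower, and 1 of 31 members was called. A two-sided exact permutation test over the arrays gave p = 0.1 for Sema3e, the smallest value that 3 against 3 can give. Leaving out any single array kept the difference between -0.67 and -0.60 but raised the adjusted p to between 0.0851 and 0.143, where limma called 0 genes in all (unadjusted p for Sema3e from 2.5e-05 to 5.63e-05). Without both control replicate 1 and mutant replicate 2 the difference was -0.68 (adjusted p = 0.138).

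**Figure D1:**
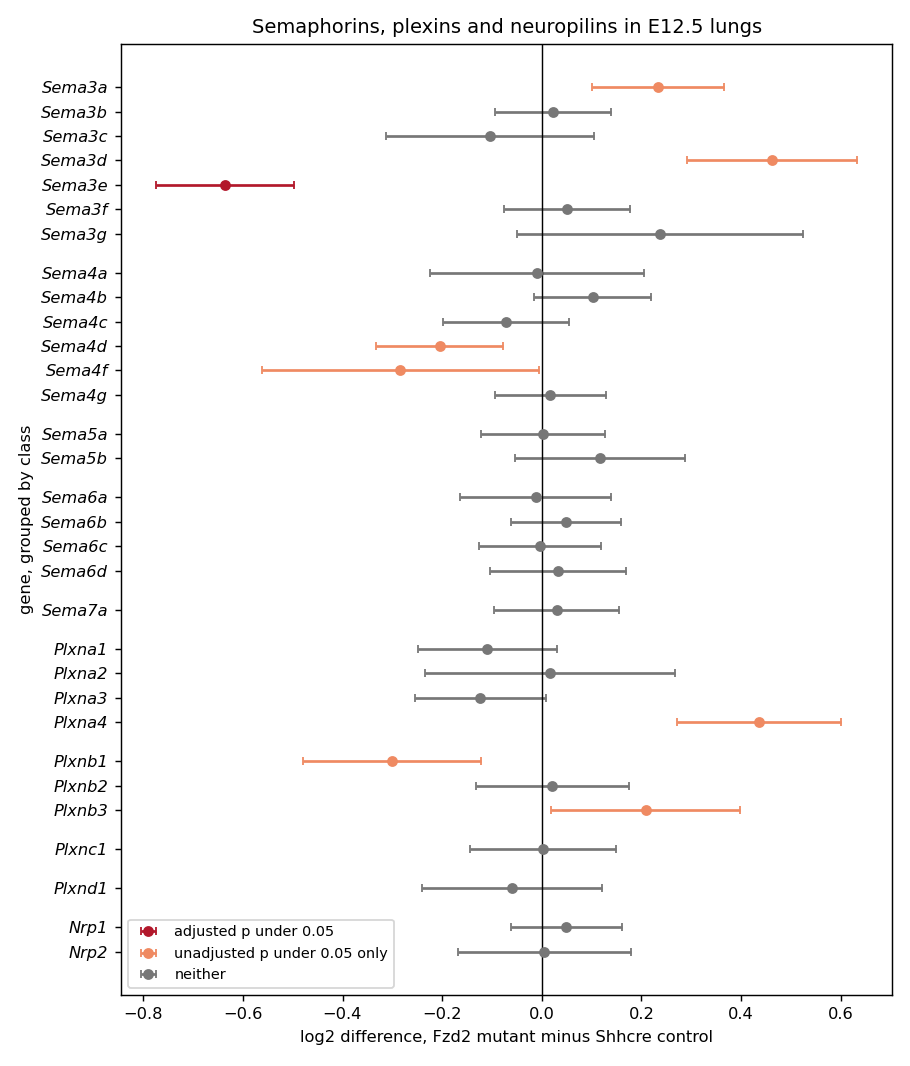
Log2 difference between Fzd2 mutant and Shhcre control lungs (x axis) for each of 31 genes (y axis, grouped by class), as points with 95% confidence intervals from limma, 3 arrays per group. Sema3e at -0.64 is the one gene called over all genes, Sema3d (0.46) and Plxna4 (0.44) lie farthest on the other side, and most of the rest lie near 0.

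Plxnd1, which encodes the plexin that binds Sema3E and is prominent in endothelium, had overlapping groups. Its values were 11.09, 10.87 and 10.84 in mutant lungs and 11.01, 11.06 and 10.91 in control lungs. The difference was -0.06 (SE 0.08, 95% confidence interval -0.24 to 0.12, adjusted p = 0.772). Single arrays moved this value: it lay between -0.14 (SE 0.06, limma adjusted p = 0.437), without mutant replicate 1, and -0.01, without mutant replicate 3. Mutant replicate 1, the array with high heart muscle markers, had the highest Plxnd1 value. The other mutant arrays lay below all control arrays. The interval over all arrays does not reach the size of the Sema3e difference. Taken within each array, Sema3e minus Plxnd1 was -2.69 ± 0.13 in mutants and -2.11 ± 0.14 in controls (SD, n = 3 each), a change of -0.58. The exact permutation test of that change gave p = 0.1, again the smallest possible, and the change lay between -0.64 and -0.50 when single arrays were left out. Because Sema3e was already known to separate the groups, this test is no independent support either. Endothelial markers gave no clear offset either: 6 of 14 had higher and 8 had lower means in mutants, and their summed signal was 12778 to 13749 in mutants and 13051 to 13900 in controls.

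Summed markers of several cell types also separated the mutant from the control arrays. All 27 measured pan-epithelial markers had lower means in mutants, with a median difference of -0.29 (1 called, 20 at an unadjusted p under 0.05), and their summed signal was 15614 to 16802 in mutants and 19327 to 20699 in controls. The list mean was 8.85, 8.70 and 8.83 in mutant replicates 1 to 3 and 9.09, 9.11 and 9.02 in control replicates 1 to 3. With the epithelial mean as a covariate the Sema3e difference was -0.86 (adjusted p = 0.862, unadjusted p = 0.000978), from groups whose epithelial means did not overlap. Because whole lungs were measured, fewer cells of a type and less RNA per cell cannot be told apart. Mesenchyme markers had higher means in 9 of 15 cases (median 0.18, 1 called, 8 at an unadjusted p under 0.05 in either direction). Their summed signal was 28623 to 30179 in mutants and 26895 to 28138 in controls. Smooth muscle markers had lower means in 6 of 7 cases (median -0.13, 0 called, 4 at an unadjusted p under 0.05), with a summed signal of 9087 to 10020 in mutants and 10732 to 11380 in controls. All 5 mesothelium markers had higher means (median 0.14, 0 called, 2 at an unadjusted p under 0.05), with sums of 3426 to 3833 in mutants and 3061 to 3164 in controls. The groups did not overlap in the sums of any of these 4 lists. Nor did they overlap in the sum of the leukocyte markers, 3523 to 3856 in mutants and 3283 to 3337 in controls. The part of these lists in the Sema3e result was not tested beyond that covariate.

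**Figure D2:**
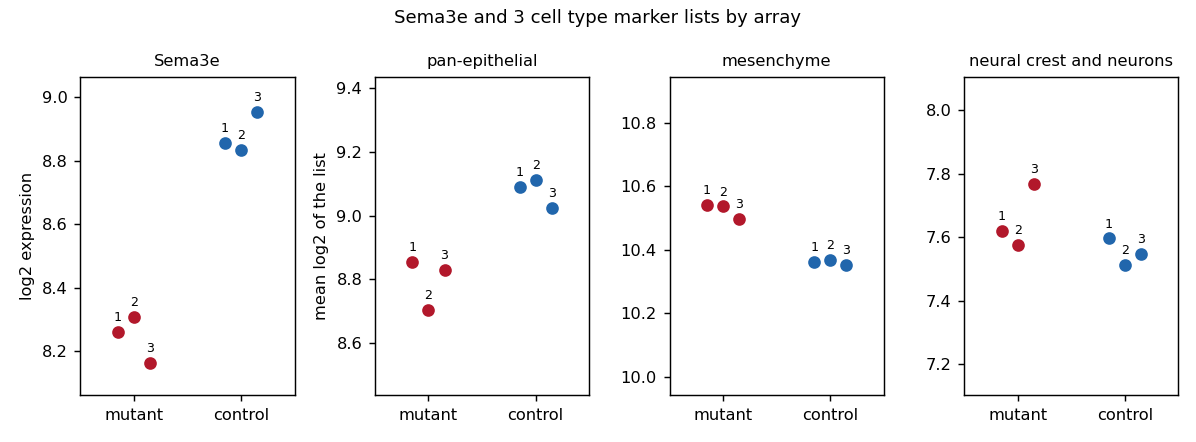
Values of Sema3e (log2 expression) and the mean log2 value of 3 cell type marker lists (y axes, each spanning 1 log2 unit) in the mutant and control arrays, numbered by replicate. Sema3e and the pan-epithelial mean are lower in all 3 mutants (8.70 to 8.85 against 9.02 to 9.11 for the list), the mesenchyme mean is higher (10.50 to 10.54 against 10.35 to 10.37), and the neural list overlaps.

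The promoters of Sema3e, of its neighbours Sema3d and Sema3a and of Plxnd1 are shown because these genes form one family cluster and one ligand and receptor pair with unlike differences. Sema3d, Sema3a and Sema3e follow each other on mouse chromosome 5 in the RefSeq table of GRCm38.p6, with 0 protein-coding genes between Sema3d and Sema3a and 3 between Sema3a and Sema3e. Each sequence runs from 250 bases before the gene start to 50 after it, 5′ to 3′ on the gene's strand, from RefSeq. They are Sema3e at chr5:14025026-14025325 (+), Sema3d at chr5:12382916-12383215 (+), Sema3a at chr5:13396534-13396833 (+) and Plxnd1 at chr6:115994956-115995255 (-), all in GRCm38.p6. Capitals mark CTTTGA or CTTTGT on either strand, the core letters bound by the TCF and LEF factors of Wnt signalling.
Sema3e: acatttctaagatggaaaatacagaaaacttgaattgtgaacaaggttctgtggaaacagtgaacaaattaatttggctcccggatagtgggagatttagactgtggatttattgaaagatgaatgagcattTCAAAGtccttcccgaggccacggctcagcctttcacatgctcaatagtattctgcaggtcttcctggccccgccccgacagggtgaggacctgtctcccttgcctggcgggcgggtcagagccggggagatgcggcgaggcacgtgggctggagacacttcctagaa
Sema3d: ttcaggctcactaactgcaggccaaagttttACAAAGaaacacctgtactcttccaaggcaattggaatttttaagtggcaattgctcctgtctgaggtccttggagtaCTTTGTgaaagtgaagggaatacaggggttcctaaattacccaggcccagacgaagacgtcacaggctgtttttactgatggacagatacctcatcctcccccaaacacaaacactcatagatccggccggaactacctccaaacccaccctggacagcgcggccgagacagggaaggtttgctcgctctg
Sema3a: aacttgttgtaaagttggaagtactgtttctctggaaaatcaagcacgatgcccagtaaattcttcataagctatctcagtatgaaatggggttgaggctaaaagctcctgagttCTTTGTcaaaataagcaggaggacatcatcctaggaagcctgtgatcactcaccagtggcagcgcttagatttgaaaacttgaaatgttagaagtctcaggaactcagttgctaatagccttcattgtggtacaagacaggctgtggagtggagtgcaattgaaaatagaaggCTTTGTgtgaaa
Plxnd1: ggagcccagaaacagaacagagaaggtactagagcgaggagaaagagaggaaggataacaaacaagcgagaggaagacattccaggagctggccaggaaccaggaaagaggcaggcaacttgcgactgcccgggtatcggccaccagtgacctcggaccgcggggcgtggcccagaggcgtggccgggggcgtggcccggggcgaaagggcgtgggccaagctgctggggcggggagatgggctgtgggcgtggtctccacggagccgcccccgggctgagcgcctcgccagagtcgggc
There was 1 match in Sema3e, 2 in Sema3d, 2 in Sema3a and 0 in Plxnd1, whose promoter has the highest share of G and C of the 4 (67.0%). Of 32851 promoters of this length in the table, 31.2% hold a match, as do 11 of 37 promoters (29.7%) of the 26 members with an entry.

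Beyond Sema3e, the largest difference among the ligands was that of Sema3d, also of class 3. Of 7 genes, 5 had a higher mean and 2 a lower one, with a median of 0.05 against 0.01 over all genes. Sema3d, which in mouse is known to shape the pulmonary veins, was at 10.29, 10.20 and 10.37 in mutants and at 9.87, 9.91 and 9.70 in controls. Its groups did not overlap, and mutant replicate 3 and control replicate 3 stood at the far ends. The difference was 0.46 (SE 0.07, 138% of control), which limma did not call (adjusted p = 0.105). Sema3a, which signals through Nrp1 and class A plexins, had 9.12, 9.04 and 9.03 in mutants and 8.89, 8.86 and 8.74 in controls, again without overlap. Its difference was 0.23 (SE 0.06, adjusted p = 0.217). So the 3 neighbouring genes differed in sign, with Sema3e lower and Sema3d and Sema3a higher in each mutant array than in each control array.

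The other secreted ligands overlapped between the groups. Sema3g, a ligand that binds Nrp2, was at 7.74, 8.26 and 7.86 in mutants and 7.78, 7.67 and 7.69 in controls. The single high value was that of mutant replicate 2, the array with high adipose markers, and without it the difference of 0.24 (SE 0.12, adjusted p = 0.467) became 0.08. Sema3c, which is needed for the cardiac outflow tract, had a difference of -0.10 (SE 0.09), Sema3f, the classical ligand of Nrp2, 0.05 (SE 0.05) and Sema3b 0.02 (SE 0.05). Sema3c also lies on chromosome 5, with 15 protein-coding genes between it and Sema3e.

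**Figure D3:**
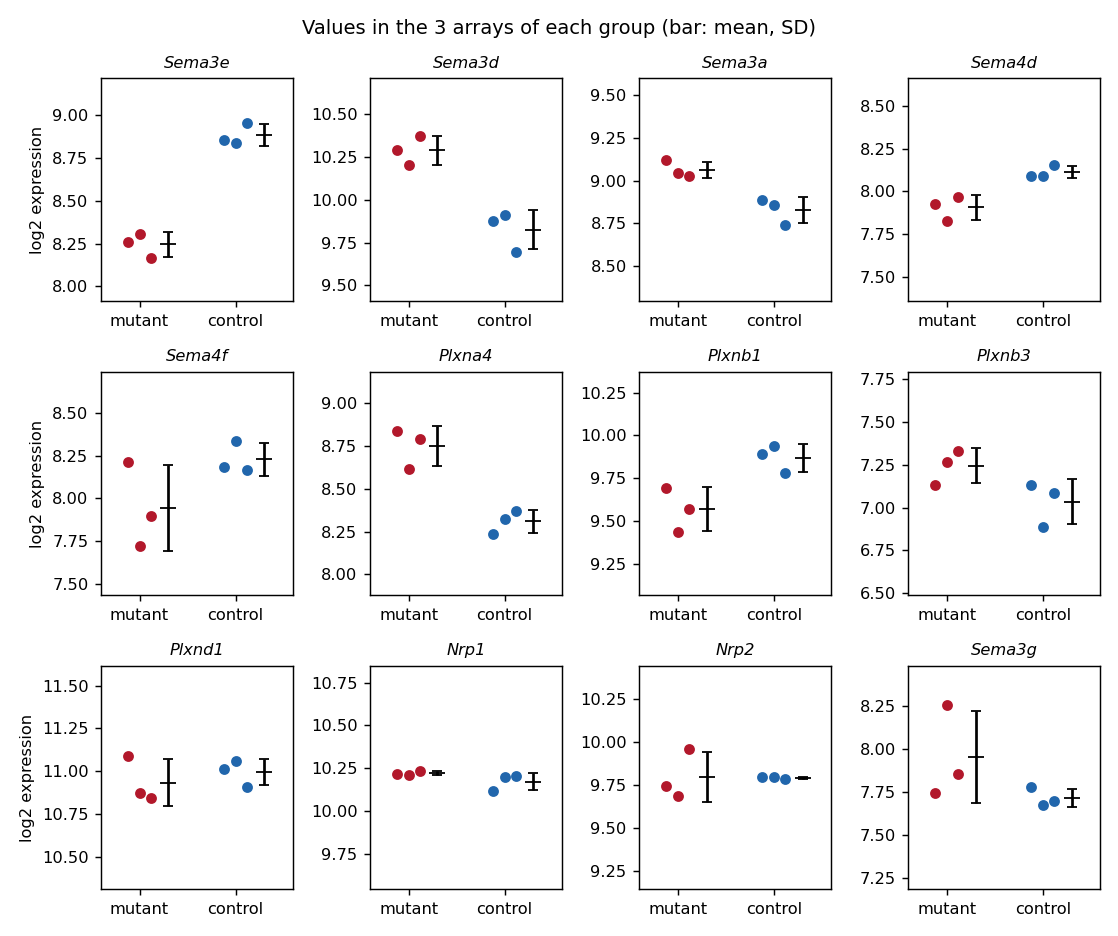
Log2 expression of 12 members (y axis, spanning 1.3 log2 units in each panel) in the 3 mutant and 3 control arrays, as points in replicate order, with mean and SD as a bar to the right of each group. Sema3e, Sema3d, Sema3a, Sema4d, Plxna4 and Plxnb1 separate the groups, Plxnd1 and Nrp2 overlap, Nrp1 separates by a mean difference of 0.05, and Sema3g has a single high array, mutant replicate 2.

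The class 4 semaphorins are membrane-bound. Of 6 genes, 4 had lower means (median -0.04, against 0.01 over all genes, of which 54.8% had higher means). The lower genes Sema4d and Sema4f were at an unadjusted p under 0.05. They make 33.3% of this small class, against 5.15% of all genes that were lower at that level. Sema4d, the ligand of Plexin-B1, was at 7.93, 7.83 and 7.97 in mutants and 8.09, 8.09 and 8.15 in controls. The groups did not overlap, and the difference was -0.20 (SE 0.05, adjusted p = 0.257). Sema4f was at 8.21, 7.72 and 7.90 in mutants and 8.18, 8.34 and 8.16 in controls, so that mutant replicate 1 lay among the controls. Its difference of -0.28 (SE 0.12, adjusted p = 0.396) became -0.17 without mutant replicate 2. Sema4b had non-overlapping groups with a small difference of 0.10 (SE 0.05), and Sema4c, a ligand of Plexin-B2, had -0.07 (SE 0.05). Sema4g differed by 0.02 (SE 0.05), and Sema4a, known from immune cells and retina, by -0.01 (SE 0.09).

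Classes 5, 6 and 7 showed small differences in all 7 genes. Sema5b, which carries thrombospondin repeats like Sema5a, had the largest (0.12, SE 0.07, adjusted p = 0.537), with 8.53, 8.31 and 8.45 in mutants and 8.40, 8.23 and 8.30 in controls. Sema5a itself was at 9.95 ± 0.06 in mutants and 9.95 ± 0.05 in controls (SD, n = 3 each). The class 6 genes Sema6a, Sema6b, Sema6c and Sema6d, whose transmembrane products bind class A plexins, lay between -0.01 and 0.05, with 95% confidence intervals from -0.16 to 0.17. Sema7a, which encodes a lipid-anchored semaphorin that acts through integrins and Plexin-C1, had a difference of 0.03 (SE 0.05).

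Differences of the plexins ran in both directions within classes A and B. Plxna4, a receptor for Sema3A with neuropilin and for class 6 semaphorins, had the highest difference of the 9 plexins. It was at 8.84, 8.62 and 8.79 in mutants and 8.24, 8.32 and 8.37 in controls, without overlap. The difference of 0.44 (SE 0.07, 135% of control) was not called (adjusted p = 0.108). The other class A genes had lower or nearly equal means, Plxna3 at -0.12 (SE 0.06, groups without overlap), Plxna1 at -0.11 (SE 0.06) and Plxna2 at 0.02 (SE 0.11). Plxna4 is expressed by neurons, and 8 of 9 measured markers of neural crest and neurons had higher means in mutants (median 0.05, 0 called, 3 at an unadjusted p under 0.05). Their summed signal was 2101 to 2442 in mutants and 2252 to 2296 in controls, so the groups overlapped, and the part of that list in the Plxna4 value was not tested.

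Plxnb1 encodes the receptor of Sema4D, and limma called neither gene. The values of Plxnb1 were 9.69, 9.44 and 9.57 in mutants and 9.89, 9.94 and 9.78 in controls, without overlap. The difference was -0.30 (SE 0.08, 81.2% of control, adjusted p = 0.238). A second, dimmer probe set of Plxnb1 differed by 0.04, so the lower value rests on the brighter one. With the epithelial mean as a covariate the difference was 0.14 (SE 0.14) for Plxnb1, -0.08 (SE 0.15) for Sema4d, 0.81 (SE 0.16) for Sema3d, 0.40 (SE 0.15) for Sema3a and 0.69 (SE 0.19) for Plxna4, none of them called, again from groups whose epithelial means did not overlap. Plxnb3, a receptor of Sema5A, was at 7.13, 7.27 and 7.33 in mutants and 7.13, 6.89 and 7.08 in controls. Mutant replicate 1 and control replicate 1 nearly coincided, and the difference was 0.21 (SE 0.08, adjusted p = 0.366). Plxnb2, the receptor of Sema4C, differed by 0.02 (SE 0.07, 95% confidence interval -0.13 to 0.17), and Plxnc1, the plexin of Sema7A, by 0.0021 (SE 0.06, 95% confidence interval -0.14 to 0.15).

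The neuropilins, co-receptors that bind both class 3 semaphorins and vascular endothelial growth factors, had small differences. Nrp1 was at 10.22, 10.21 and 10.23 in mutants and 10.12, 10.20 and 10.20 in controls. The mutant arrays were all above the controls, yet the difference was 0.05 (SE 0.05, 95% confidence interval -0.06 to 0.16). Nrp2 was at 9.74, 9.69 and 9.96 in mutants and 9.79, 9.79 and 9.78 in controls. The control arrays lay within the spread of the mutants, and the difference was 0.01 (SE 0.07, 95% confidence interval -0.17 to 0.18).

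Of the 31 genes, 19 had a higher mean in mutants and 12 a lower one, with a median of 0.02 against 0.01 over all genes. That split depends on scaling: it was 10 higher and 21 lower once arrays were centred on their medians, because most differences are close to 0. At an unadjusted p under 0.05 4 members were higher (12.9%) and 4 were lower (12.9%), where 7.34% of all genes were higher and 5.15% lower at that level. Of these 8, the 6 genes Sema3a, Sema3d, Sema3e, Sema4d, Plxna4 and Plxnb1 were at that level in each of 7 fits that left out arrays. Without single arrays the difference ran from 0.40 to 0.51 for Sema3d, from 0.39 to 0.50 for Plxna4 and from 0.19 to 0.26 for Sema3a. It ran from -0.24 to -0.16 for Sema4d and from -0.36 to -0.24 for Plxnb1. The groups did not overlap in 9 members (29.0%), against 19.4% of all genes, dim ones included. A difference of more than 1.2-fold was seen in 5 members (16.1%), namely Sema3d, Sema3e, Sema4f, Plxna4 and Plxnb1, against 3.96% of all genes, again with dim ones. The remaining 23 members, above an unadjusted p of 0.05, lay between -0.12 and 0.24, with outermost 95% confidence bounds of -0.31 and 0.52. The SD within a group ran from 0.01 to 0.27 in mutants (median 0.08) and from 0.0052 to 0.20 in controls (median 0.06), highest in Sema3g and Plxna2.

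**Figure D4:**
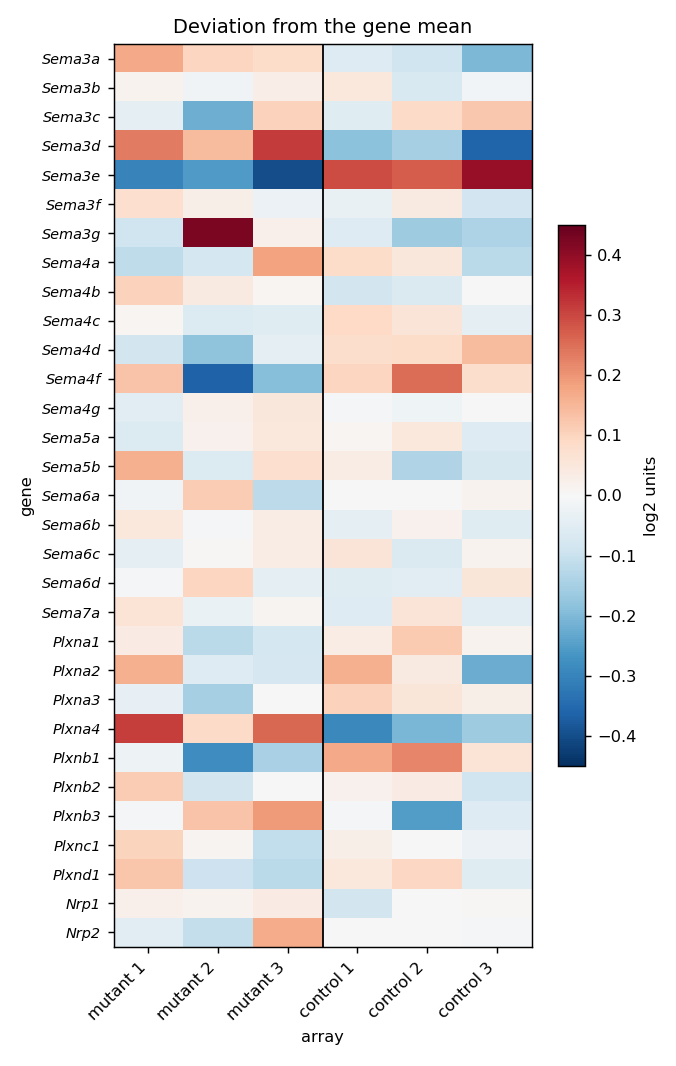
Deviation of each array (x axis) from the mean over all 6 arrays of the gene (colour, log2 units) for the 31 members (y axis, in family order), mutants to the left of the line. Sema3e is low and Sema3d and Plxna4 are high in all 3 mutants, and mutant replicate 2 alone stands out in Sema3g and is lowest in Sema4f.

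Partners of the pathway were read from a list of 67 co-receptors, effectors and processing enzymes, of which 63 were measured. None passed over all genes by limma (0 higher and 0 lower), and at an unadjusted p under 0.05 there were 8 higher (12.7%) and 4 lower (6.35%), against the 7.34% and 5.15% of all genes. The 6 with the smallest p had modest differences. Tyrobp (0.33, SE 0.06, adjusted p = 0.149) and Trem2 (0.23, SE 0.06) encode an immune adaptor and its receptor, which in mouse take part in responses to Sema6D. Leukocyte markers, among them Tyrobp, had higher means in 6 of 9 cases. Their summed signal was 3523 to 3856 in mutants and 3283 to 3337 in controls, without overlap. The part of these markers in the Tyrobp and Trem2 values was not tested. Vegfb, a growth factor of the family that neuropilins bind, differed by 0.20 (SE 0.05). Plxdc1, a plexin-domain protein known from tumour vessels, differed by 0.24 (SE 0.06) and Rnd3, a small GTPase, by 0.19 (SE 0.05). Dpysl5, of the collapsin response mediators that act downstream of Sema3A, differed by -0.20 (SE 0.06). Over the 63 genes the median was 0.02, with 37 higher and 26 lower means. For the 38 genes listed as intracellular effectors, which also held the plexin-domain genes Plxdc1 and Plxdc2, it was -0.01.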

How the data were processed

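The authors deposited 1 table of log2 expression values for 41345 probe sets and 6 arrays, normalized by RMA with the oligo package, per the submitters' processing notes, which give no versions or filters here. RMA sets the probe intensities of the arrays to a common distribution before they are summarized, so changes are relative to the bulk of genes. The deposited values of probe sets did not share one distribution exactly. A further quantile normalization moved the Sema3e difference from -0.64 to -0.60. The log2 scale was inferred from the range of values, 3.55 to 14.04. Groups come from the sample titles. The platform annotation gave 1 symbol to 23521 probe sets, several to 1814 and none here to 16010, leaving 22180 genes. All 31 members matched by symbol and Entrez ID in the RefSeq table of GRCm38.p6. Mutants were compared with controls by limma 3.58.1 in R 4.3.3 (lmFit, eBayes, two-sided, with group as sole term and Benjamini-Hochberg adjustment over all genes, threshold 0.05), tested on simulated data. Dim probe sets were kept: all 31 members lie above the 30th percentile of mean expression and 27 above the 50th. Exact permutation tests used scipy 1.17.1 and figures matplotlib 3.10.9. Values in every array are given for Sema3e, Plxnd1, the neuropilins, members at an unadjusted p under 0.05 and Fzd2; of the partner list the 6 genes with the smallest p are named. Other members with array values were chosen after these were seen. Members, lists and tests were chosen with earlier results of these data known. P-values rest on the spread between arrays, and the labels do not state if an array was a single lung or pooled lungs.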

Additional observations from a re-analysis of the deposited data

How the results depend on the processing

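Limma called 14 genes over all genes and 8 after a further quantile normalization, 24 with arrays centred on their medians, 25 and 50 above the 30th and 50th percentile of expression, 26 with an eBayes trend and 26 with a robust eBayes. It called 0 with the replicate block, 0 with the pan-epithelial mean as covariate, 0 without control replicate 1 and mutant replicate 2, and 0 (lowest and highest) without any single array, with 1797 to 3084 at p under 0.05 before adjustment. The counts were 57 at an adjusted p under 0.10 and, unadjusted, 2770 at a p under 0.05 (8 members and 12 partners). Sema3e passed in 8 of 17 other fits, and the count of members called was 0 in the remaining fits. These were the replicate block (-0.64, adjusted p = 0.181), the covariate (-0.86, adjusted p = 0.862), the fit without control replicate 1 and mutant replicate 2 (-0.68, adjusted p = 0.138) and the 6 without 1 array (-0.67 to -0.60). Same-numbered arrays showed weak correlations of deviations (-0.04, -0.06 and 0.07 for replicates 1 to 3), and mutant replicate 1 was closest to control replicate 2 (0.14). Each deviation is taken from a mean of only 3 arrays, so these values cannot decide if the replicate number is a pairing. The difference between Sema3e and Plxnd1 was -1.11 with the covariate.

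No called member reversed. Members that were not called changed sign as follows, among them Plxnb1, Sema4f and Sema3g, which stood at -0.30, -0.28 and 0.24 without the covariate. With the covariate they were Sema3c (0.18), Sema3g (-0.47), Sema4a (0.25), Sema4c (0.089), Sema4f (0.39), Sema4g (-0.049), Sema6d (-0.23), Plxna1 (0.13), Plxna3 (0.10), Plxnb1 (0.14) and Plxnd1 (0.25). With centred arrays they were Sema3b (-0.013), Sema4g (-0.018), Sema5a (-0.033), Sema6d (-0.0029), Sema7a (-0.0055), Plxna2 (-0.020), Plxnb2 (-0.014), Plxnc1 (-0.033) and Nrp2 (-0.030). With array weights they were Sema4a (0.035) and Plxnc1 (-0.0057), with quantile normalization Sema6a (0.022) and Sema6c (0.022), and with mutant replicate 2 and control replicate 1 left out Sema4a (0.066), Sema5a (-0.0015), Sema6c (0.019) and Sema6d (-0.027). Without single arrays the ranges that crossed 0 were -0.0065 to 0.051 for Sema3b, -0.10 to 0.046 for Sema4a, -0.0041 to 0.046 for Sema4g, -0.025 to 0.034 for Sema5a, -0.073 to 0.044 for Sema6a, -0.037 to 0.024 for Sema6c, -0.0073 to 0.069 for Sema6d, -0.091 to 0.099 for Plxna2, -0.030 to 0.067 for Plxnb2, -0.048 to 0.058 for Plxnc1 and -0.076 to 0.061 for Nrp2. The causes were not tested.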

Other observations

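Of the 31 members, 2 genes had a second, dimmer probe set with the same symbol. For Plxnb1 this second probe set was at 7.12, 7.10 and 7.11 in mutants and 7.05, 7.12 and 7.06 in controls, a difference of 0.04, against -0.30 for the brighter one. With the mean of both probe sets Plxnb1 differed by -0.13 (adjusted p = 0.398). For Plxna1 the second probe set differed by 0.01, against -0.11 for the brighter one. The transcripts that each probe set of a pair reads were not analysed here.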
